A study of Rattus norvegicus with 16 samples.

Results

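Primary hippocampal neurons from Sprague-Dawley rat embryos (embryonic day 18 to 19) that carried a lentiviral shRNA against Prr7 were compared with neurons that carried a lentivirus with a nontargeting shRNA. The members of the comparison were the 4 samples labelled knock-down and the 4 labelled non-targeting shRNA, 8 of the 16 samples of the series, and they were chosen by these labels alone. The other 8 samples, 4 cultures not transduced with virus and 4 transduced with a virus that overexpressed Prr7, served here only to show which of the 2 shRNA groups had moved. RNA was hybridised to 8 Agilent rat arrays in 2 dyes, with replicates 1 and 2 of a group on one array and replicates 3 and 4 on another. Both knockdown arrays and both nontargeting arrays lay on one slide, and the other 2 groups lay on a second slide. The labels call the samples biological replicas but do not say whether cultures came from separate litters, so p-values measure the spread between these samples. The protocol gives 1 target sequence for the knockdown, in pTRIP lentiviral vectors, and the overexpression virus was built in FUGW. The sequence of the nontargeting shRNA was not used here.

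PRR7 (proline rich 7) is a small transmembrane adaptor protein of the postsynaptic density. The series title names it as an NMDA-dependent inhibitor of c-Jun ubiquitination, the product of the immediate early gene Jun. Immediate early genes are switched on within minutes of synaptic activity without new protein synthesis, and many encode transcription factors such as FOS and NR4A1. Cells that prepare to copy their DNA switch on another programme, in which E2F1 activates the genes of the MCM helicase and of nucleotide synthesis. Mature neurons no longer divide, and cultures of this kind also hold dividing glial precursors.

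The short hairpin targeted the coding region of Prr7, and its 2 strands are shown because the knockdown group differs from the nontargeting group by this sequence. Capitals mark bases 2 to 8 of the antisense strand, the seed that pairs with other transcripts when a small RNA acts like a microRNA, and the matching bases of the target.

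Target in Prr7: cggaatcggacATGTCTAa

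Antisense strand: tTAGACATgtccgattccg

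No probe of the array is named Prr7 (0 probes), and 0 probes hold the whole target, so the fall of Prr7 itself could not be checked on these arrays. The direction of every difference below rests on the sample labels.

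Each gene was read by a probe of 60 bases. The probes of Fos and Mcm3, the genes with the largest fall and the largest rise among the named genes, are shown because their fold changes rest on these letters. Both contain an open reading frame throughout.

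Fos probe (chr6:109561099-109561158, rn4): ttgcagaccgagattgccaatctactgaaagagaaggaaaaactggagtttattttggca

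Mcm3 probe (chr9:19538668-19538727, rn4): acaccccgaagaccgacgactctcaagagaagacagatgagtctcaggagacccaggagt

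Of 22925 genes tested, 4919 differed between knockdown and nontargeting cultures at an adjusted p under 0.05 in limma with the array as a block, which is 21.5% of the genes. In knockdown 2397 genes were higher (10.5%) and 2522 were lower (11%). Most differences were small: the median size among them was 0.67 on the log2 scale, 951 reached 2-fold (575 higher, 376 lower) and 59 reached 4-fold (32 higher, 27 lower). The 4 knockdown samples did not overlap the 4 nontargeting samples in 4816 of the 4919 genes, and in 37.9% of all genes tested. With the authors' deposited log2 values, which were centred on each column's own median, the split became 3608 higher and 980 lower, and the median of all genes was 0.16 in place of -0.02. The deposited values differ from those used here in the signal statistic, background correction, normalization and number of genes tested (20706), and which of these moved the split was not tested. Values below are relative to a median of -0.02.

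**Figure D1:**
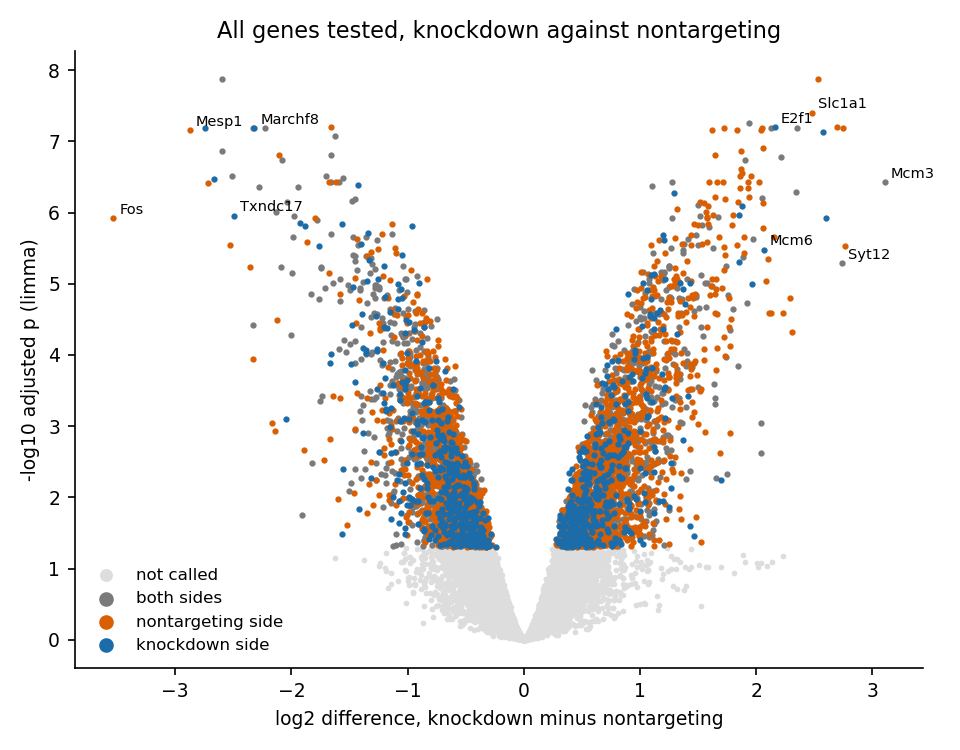
Each point is 1 gene, with the log2 difference of knockdown minus nontargeting on the x axis and -log10 of the limma adjusted p on the y axis. Colours give the side of the 4919 called genes, and Fos at -3.53 and Mcm3 at 3.1 lie farthest out among the labelled genes.

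The second question was which group had moved. For each called gene the nontargeting share was the distance of the nontargeting mean from a reference, divided by the whole difference, with the mean of the not transduced and overexpression groups as the reference. A share of at least 75% put the gene on the nontargeting side, a share of at most 25% on the knockdown side, and a share between them on both sides. By this measure 2292 of the 4919 genes (46.6%) lay on the nontargeting side, 835 (17%) on the knockdown side and 1792 (36.4%) on both. Among the genes of at least 2-fold the counts were 423, 150 and 378, and of those on the nontargeting side 314 were higher and 109 lower in knockdown. The median share over all called genes was 70.9%. In 602 genes the knockdown mean left the reference in the nontargeting direction too, by more than 25% of the difference. In 192 genes the nontargeting mean did so in the knockdown direction. The nontargeting or knockdown side therefore names the group farther from the reference, not the only one that moved. The reference groups lay on the other slide, so for the side, though not for the difference itself, slide and group cannot be told apart.

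Tests against the not transduced cultures gave like portions for the nontargeting and knockdown sides. They placed far fewer genes on both sides, 3.44% against 36.4% by the share. The nontargeting group differed from them in 5147 genes (22.5% of those tested) and the knockdown group in 2311 (10.1%). Of the 4919 genes, 2536 (51.6%) differed from not transduced cultures in the matching direction in the nontargeting group alone, 816 (16.6%) in the knockdown group alone, 169 (3.44%) in both in opposite directions, and 1398 (28.4%) in neither. The same test called 1 gene between overexpression and not transduced cultures, which share a slide, and 889 there had an unadjusted p under 0.05. These comparisons share their control samples with each other.

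**Figure D2:**
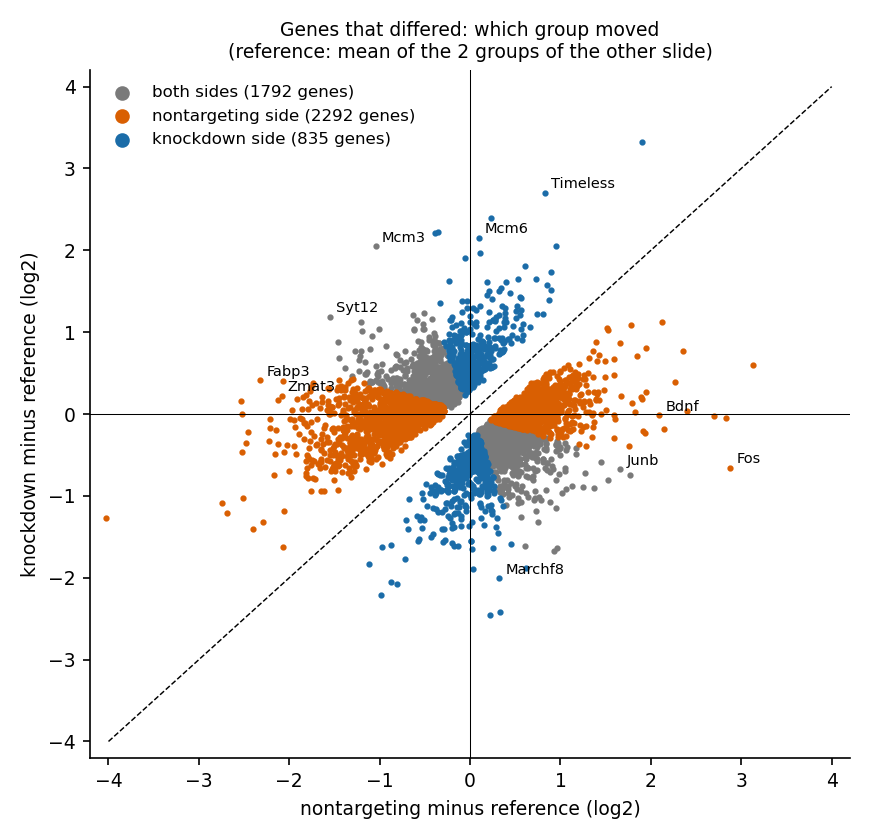
Each point is 1 of the 4919 called genes, with the nontargeting mean minus the reference on the x axis and the knockdown mean minus the reference on the y axis, both in log2 units. The 2292 genes of the nontargeting side spread along the x axis, the 835 of the knockdown side along the y axis, and the dashed line marks equal levels in both groups.

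Of the 5 genes lowest in knockdown on the nontargeting side, Fos, Nr4a1 and Sik1 are regulated by neuronal activity, and all 5 were high in the nontargeting cultures. Fos, the AP-1 transcription factor, read 8.88, 8.70, 9.32 and 9.2 (log2 intensity) in knockdown replicates 1 to 4. It read 12.74, 12.76, 12.28 and 12.45 in the nontargeting replicates. The groups were far apart, and knockdown was 11.6-fold lower (log2 difference -3.53, SE 0.30, adjusted p = 1.19e-06). Against not transduced cultures the nontargeting level was 2.84 higher on the log2 scale (adjusted p = 1.27e-05), and the knockdown level differed by -0.69 (adjusted p = 0.162). Mesp1, a transcription factor of early mesoderm, was 7.34-fold lower with a nontargeting share of 98.4%. Ccn1, a secreted matrix protein induced by growth factors, was 6.59-fold lower, and its other probe fell too (-1.86).

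Nr4a1, an orphan nuclear receptor induced by activity, read 10.97, 11.10, 11.10 and 11.42 in knockdown and 13.72, 13.91, 13.31 and 13.76 in nontargeting cultures. Its 5.76-fold difference (adjusted p = 2.82e-06) went with a nontargeting share of 124%, since the knockdown mean also lay above the reference. Sik1, a kinase that restrains CREB coactivators, was 5.13-fold lower. Bdnf, the neurotrophin released by active neurons, was 4.31-fold lower (9.66, 9.68, 9.74 and 9.75 against 11.80, 11.96, 11.62 and 11.88), and both of its probes fell. Its knockdown samples lay close together, and its share was 99.4%.

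Of 40 measured immediate early genes 21 were lower and 2 higher in knockdown, with a median of -0.63, against 11% lower and 10.5% higher over all genes tested. Of the 23, 18 lay on the nontargeting side, 0 on the knockdown side and 5 on both. The median of the list against not transduced cultures was 0.69 in the nontargeting group and -0.08 in knockdown. Against those cultures 27 of the 40 passed in the nontargeting group and 11 in knockdown, beside 22.5% and 10.1% of all genes tested. The 2 higher genes, named after their values were seen, were Homer1 (1.77, adjusted p = 0.00123), a scaffold of the postsynaptic density with short activity-induced and long forms, and Egr1 (0.98, adjusted p = 0.0125), a zinc finger transcription factor. The probes of Homer1 disagreed: the second one was lower (-1.58, adjusted p = 0.000272). Which form each probe reads was not determined, and the mean of both did not pass (0.09, adjusted p = 0.835). Egr1 did not pass without the knockdown array of replicates 3 and 4 (0.62, adjusted p = 0.194).

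Jun, whose product the series title names, did not pass in this comparison. It read 10.64, 10.49, 11.04 and 11.16 in knockdown and 11, 10.86, 11.22 and 10.93 in nontargeting cultures, and the groups overlapped (difference -0.17, SE 0.27, adjusted p = 0.731). Both shRNA groups lay below not transduced cultures, by 1.48 for knockdown (log2 difference -1.48, adjusted p = 0.00301) and by 1.32 for nontargeting (-1.32, adjusted p = 0.00299), across slides. Junb, a partner in the same AP-1 dimers, read 8.72, 8.42, 9.13 and 8.74 in knockdown and 11.15, 11.13, 11.14 and 10.92 in nontargeting cultures. It was 5.03-fold lower (adjusted p = 6.5e-08) and lay on both sides: 1.43 above not transduced cultures in nontargeting samples and -0.90 from them in knockdown.

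**Figure D3:**
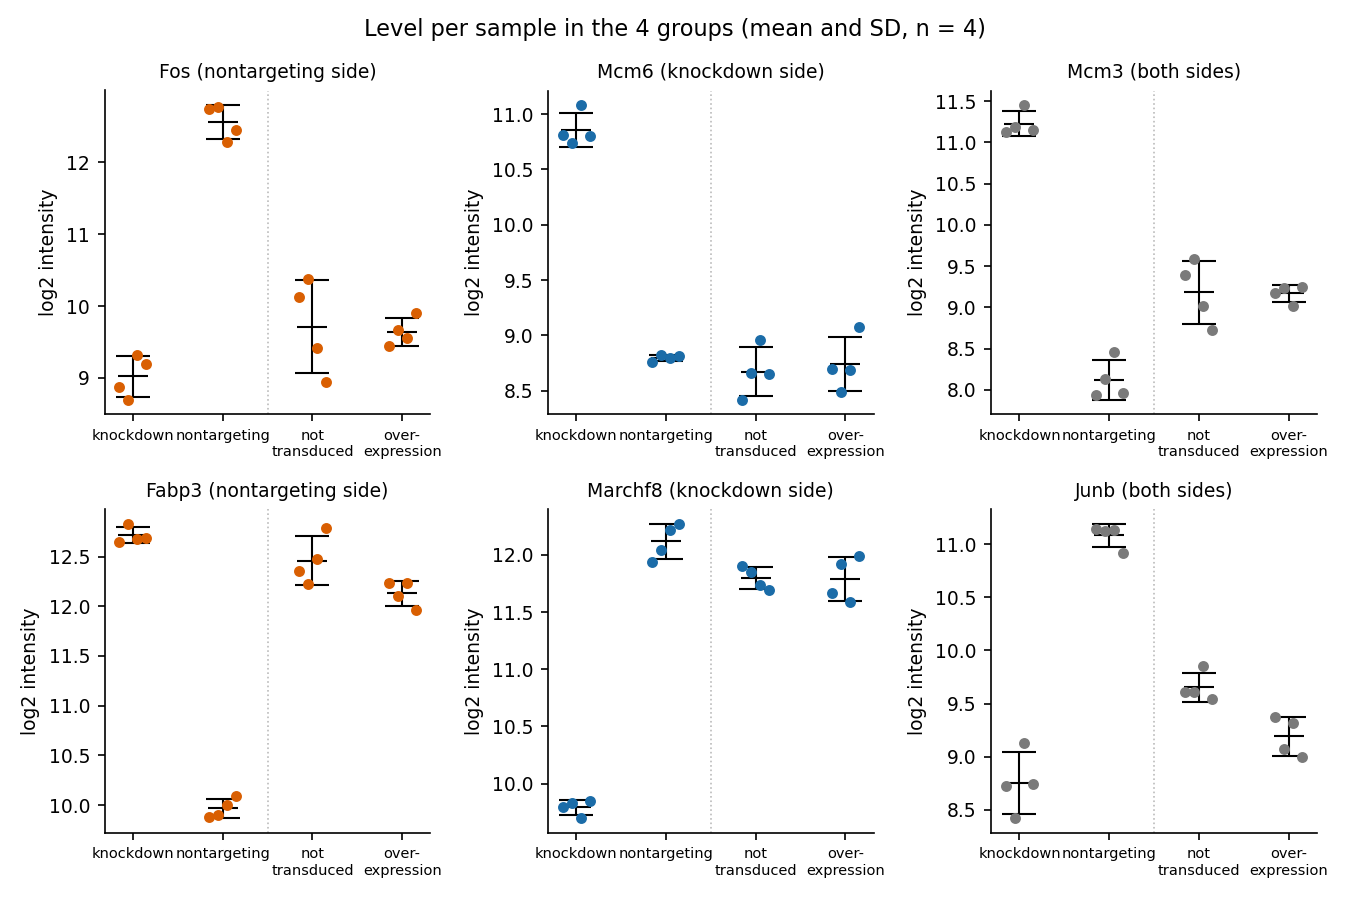
Points are the 4 samples of a group, with mean and SD, for 2 genes of each side; the y axes are log2 intensity and start at different levels, and the dotted line separates the slides. Fos and Fabp3 depart from the rest in the nontargeting group, Mcm6 and Marchf8 in the knockdown group, and Mcm3 and Junb in both.

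The genes highest in knockdown on the nontargeting side were low in nontargeting cultures against not transduced ones. Fabp3, a fatty acid binding protein, read 12.65, 12.83, 12.68 and 12.69 in knockdown and 9.88, 9.90, 10 and 10.09 in nontargeting cultures. It was 6.69-fold higher (adjusted p = 6.5e-08), and the nontargeting level lay 2.49 below that of not transduced cultures (log2 difference -2.49). Rab4b, a small GTPase of recycling endosomes, was 6.47-fold higher, its nontargeting samples spanning 9.49 to 9.53 and its knockdown samples 12.03 to 12.4. Its relative Rab4a was 3.65-fold higher, also with a share above 90% (93.9%). Each was read by a probe of its own, on chromosomes 1 and 19.

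Slc1a1, the neuronal glutamate transporter EAAC1, read 12.17, 12.15, 12.06 and 12.17 in knockdown and 9.69, 9.75, 9.57 and 9.62 in nontargeting cultures. This 5.58-fold difference had the smallest adjusted p among the named genes (3.94e-08), and all 4 knockdown samples stood above all 4 nontargeting ones. Rnaseh2a, the catalytic subunit of an RNase that clears RNA from DNA, was 4.17-fold higher. Pfn2, the neuronal profilin that binds actin, was 3.81-fold higher (share 96.7%). Zmat3, a p53-induced RNA-binding protein, was 4.94-fold higher, but it had values in only 2 samples of each group.

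On the knockdown side, 4 of the 5 highest genes belong to the start or the course of S phase. E2f1 read 13.73, 13.87, 13.91 and 13.80 in knockdown and 11.58, 11.57, 11.71 and 11.81 in nontargeting cultures, 4.46-fold higher (adjusted p = 6.32e-08). The nontargeting mean lay at the untransduced level (log2 difference -0.01, adjusted p = 0.963). The second E2f1 probe was higher by a smaller amount, 0.58. Tcf19, a gene of the G1 to S transition, was 5.96-fold higher. Mcm6, a subunit of the replicative helicase, read 10.81, 10.74, 11.08 and 10.80 in knockdown and stayed between 8.76 and 8.82 in the nontargeting samples (4.18-fold higher). Sdc1, a cell surface proteoglycan, was 3.91-fold higher. Timeless, of the replication fork, was 3.66-fold higher with a share of -44.1%, because the nontargeting mean also lay above the reference.

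Mcm3 differed on both sides. It read 11.13, 11.18, 11.45 and 11.15 in knockdown and 7.94, 8.13, 8.46 and 7.96 in nontargeting cultures, 8.60-fold higher (SE of the log2 difference 0.23, adjusted p = 3.75e-07). Against not transduced cultures it was 2.05 higher in knockdown and differed by -1.06 in nontargeting cultures. Its second probe was higher by 1.21. Cyclin E1 (Ccne1), which starts S phase and was added after its values were seen, was 6.08-fold higher with values in 6 of the 8 samples. Of 52 measured DNA replication genes 29 were higher and 1 lower (median 0.56, 57.7% called against 21.5% of all genes tested). Of those called, 21 lay on the knockdown side, 3 on the nontargeting side and 6 on both. The helicase factors Cdc45 (1.29) and Cdt1 (1.86), the polymerase subunit Pold1 (1.12) and the nucleotide enzymes Tyms (1.05) and Dut (1.2) were each higher on the knockdown side.

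Genes of mitosis, which segregate the copied chromosomes, were read next. Of 25 measured, 10 were higher and 0 lower (median 0.36, 40% called against 21.5% of all genes tested). Of the 10, 5 lay on the nontargeting side, 2 on the knockdown side and 3 on both. Over all called genes these sides held 46.6%, 17% and 36.4%. The median of the list was 0.03 against not transduced cultures in knockdown and -0.45 in nontargeting cultures. Cdk1, the kinase that drives entry into mitosis, was 4.11-fold higher (10.37, 10.79, 11.16 and 10.80 against 9.06, 8.87, 8.85 and 8.19), on both sides. Spc25, of the kinetochore, was higher by 1.19 on the knockdown side, and Top2a, which untangles chromosomes, by 1.14 on the nontargeting side, although its second probe did not pass (0.19). Without the knockdown array of replicates 3 and 4 the number of higher mitosis genes was 3. Of 34 DNA repair genes 11 were higher and 2 lower (median 0.06, 38.2% called), among them the checkpoint kinase Chek1 (1.11) and the exonuclease Exo1 (0.90). Chek1 lay on both sides and Exo1 on the knockdown side.

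Because E2f1 was among the higher genes, the promoters of all tested genes were searched for the 8-base forms of the E2F site, TTTCCCGC, TTTGGCGC, TTTCGCGC and TTTGCCGC, on both strands, in RefSeq windows from 250 bases before to 50 after the start (build GRCr8). Of 10073 tested genes with such a window 390 (3.9%) held a match. Among genes higher on the knockdown side the share was 13.1% (29 of 222), among those higher on both sides 6.3% (24 of 381), and among those higher on the nontargeting side 2.8% (16 of 580). Among lower genes it was 5.1% (25 of 495) on the nontargeting side, 3.3% on the knockdown side and 3.2% on both. These sets were not chosen by function. The upstream 250 bases of Mcm6 and Tcf19 are shown as examples, with the matches in capitals; in Mcm6 a pair of matches overlap.

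Mcm6 (GRCr8, chr13:42404353-42404602, minus strand): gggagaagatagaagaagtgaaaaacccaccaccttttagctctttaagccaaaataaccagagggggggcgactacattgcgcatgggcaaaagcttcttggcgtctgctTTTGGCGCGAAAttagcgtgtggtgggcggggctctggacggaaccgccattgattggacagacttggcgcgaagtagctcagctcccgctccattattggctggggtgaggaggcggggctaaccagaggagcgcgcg

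Tcf19 (GRCr8, chr20:3223214-3223463, plus strand): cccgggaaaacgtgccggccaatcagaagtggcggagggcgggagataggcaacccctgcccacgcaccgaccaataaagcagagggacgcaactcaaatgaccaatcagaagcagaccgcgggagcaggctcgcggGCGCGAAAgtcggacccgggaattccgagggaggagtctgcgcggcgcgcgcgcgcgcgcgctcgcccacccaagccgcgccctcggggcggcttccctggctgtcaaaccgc

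The cyclic AMP response element, through which CREB acts, was searched as its whole form TGACGTCA and as the short form TGACG, which the whole form contains, on both strands. The whole form stood in 3% of all these windows and in 4.8% of genes lower on the nontargeting side, 4.7% of those lower on the knockdown side and 5.3% of those lower on both. The short form stood in 30.2% of all windows, and in 31.9%, 37.9% and 45.3% of the same 3 sets. The AP-1 site TGACTCA, which FOS and JUN proteins bind, stood in 3.4% of all windows and in 2.2%, 5.2% and 2.3% of these sets. The Nr4a1 window holds 4 short forms, in capitals below. A match describes letters in the window and is not a measured binding site.

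Nr4a1 (GRCr8, chr7:134259888-134260137, plus strand): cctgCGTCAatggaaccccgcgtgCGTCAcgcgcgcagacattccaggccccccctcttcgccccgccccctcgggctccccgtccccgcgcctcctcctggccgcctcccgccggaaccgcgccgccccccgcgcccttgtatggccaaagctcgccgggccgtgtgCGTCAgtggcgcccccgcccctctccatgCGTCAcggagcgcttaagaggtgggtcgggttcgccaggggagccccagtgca

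The genes lowest on the knockdown side included a ubiquitin ligase, a motor protein subunit and a mitochondrial enzyme. Marchf8, a ubiquitin ligase of endosomal membranes, read 9.80, 9.83, 9.70 and 9.85 in knockdown and 11.94, 12.04, 12.22 and 12.27 in nontargeting cultures. It was 5.00-fold lower (adjusted p = 6.5e-08), 2 log2 units below not transduced cultures as well, and its second probe was lower by less (-0.86). Txndc17, a thioredoxin-like protein, read 9.09, 9.15, 9.84 and 9.76 in knockdown and 12.39, 12.25, 11.63 and 11.55 in nontargeting cultures, 5.64-fold lower. In both groups the 2 arrays differed, by less than the groups did. Mdh2, mitochondrial malate dehydrogenase, was 3.80-fold lower (11.62, 11.73, 11.59 and 11.80 against 13.31, 13.63, 13.65 and 13.86) with a share of 1.72%.

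Dynlrb1, a light chain of dynein, was 4.13-fold lower; knockdown replicate 4 read 11.76 and the other 3 knockdown samples between 12.84 and 13.06, all below the nontargeting samples (14.56 to 14.88). Calb2, the calcium buffer calretinin, was 3.17-fold lower. Atp6v0d1, a membrane subunit of the vacuolar proton pump, read between 11.97 and 12.30 in knockdown and 14.81 in both nontargeting samples with a value, 6.35-fold lower. Of 17 measured proton pump subunits, 1 other was lower, Atp6v0a1 (-0.74), and 0 were higher. This was 11.8% called, against 21.5% of all genes tested. Slc7a3, a transporter of arginine and lysine, was 2.40-fold lower, and Uqcrb, of respiratory complex III, 2.38-fold lower with all 3 of its probes lower.

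The seed of the hairpin's antisense strand was then set against the probes. Which strand of the hairpin acts, and where that strand begins in the cell, was not determined. The sense strand was not searched. Of the 22925 tested probes 114 hold the 7 bases that pair with the seed of the antisense strand, and 28 of the 114 genes (24.6%) were lower in knockdown and 5 higher, against 11% lower over all genes tested. Their median difference from not transduced cultures was -0.19 in knockdown and -0.01 in nontargeting cultures. Of the 28, 15 lay on the knockdown side, 3 on the nontargeting side and 10 on both, whereas of all 2522 lower genes 435, 1063 and 1024 did. Among the other 12 windows of 7 bases along the antisense strand the share of probes lower ran from 4% to 22%, with 20.8% for a window with 24 probes. The neighbouring window that starts at base 1 had 22% lower, but its 82 probes held 17 higher beside 18 lower. Bases 4 to 10 had 14 lower and 1 higher of 77 probes, with a knockdown median of -0.14 from not transduced cultures. Bases 3 to 9 had 17 lower and 8 higher of 114 probes. Both of these windows overlap the seed. Probes with the seed match had a median GC content of 41.7% against 45% over all genes tested, and whether this difference takes part in the share was not tested. A probe covers 60 bases of a transcript, so matches elsewhere in the transcripts were not counted.

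The 5 of these 28 genes with the smallest p, leaving out probes with no gene symbol and 1 open reading frame, were chosen after the values were seen and were Dusp3, Rab10, Uqcc5, Pabir1 and Arl8b. Dusp3, a phosphatase of MAP kinases, read 11.64, 11.74, 11.90 and 11.93 in knockdown and 13.20, 13.10, 13.20 and 13.30 in nontargeting cultures (-1.40, adjusted p = 2.8e-06). Of its other 2 probes, which read other stretches, one was lower (-1) and one was not (0.03). Rab10, a GTPase of exocytosis, was lower by 1.09 (log2 difference -1.09), and its other 2 probes did not pass (-0.25 and 0.16). With the mean over a gene's probes neither Dusp3 (-0.79, adjusted p = 0.124) nor Rab10 (-0.26, adjusted p = 0.325) passed. Uqcc5, an assembly factor of complex III, differed by -1.36, Pabir1, a regulator of phosphatase 2A, by -1.03, and Arl8b, a GTPase that moves lysosomes, by -1.06. The second probes of Pabir1 (-1.02) and Arl8b (-1.23) were lower as well. All 5 lay on the knockdown side.

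**Figure D4:**
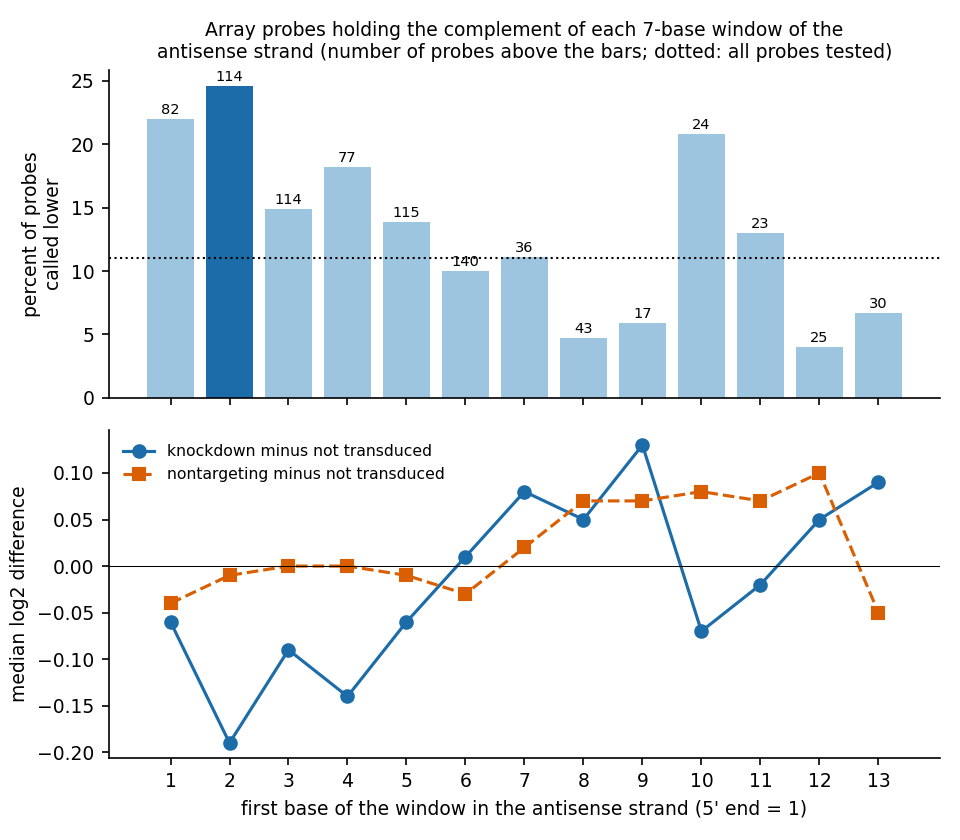
The upper plot gives the percent of probes called lower among those that hold the complement of each window of 7 bases of the antisense strand, with the number of probes above each bar, and the lower plot the median log2 difference of the same probes from not transduced cultures in each shRNA group. The seed window, starting at base 2, stands highest at 24.6% and has the lowest knockdown median, -0.19.

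The third set held the genes with a nontargeting share between 25% and 75%, which does not require that either group passed against not transduced cultures. Of the genes of this set named by size Slc16a6 (-0.89, adjusted p = 0.0619) and Cdk1 (0.71, adjusted p = 0.241) did not pass in knockdown against not transduced cultures. Syt12, a synaptotagmin of synaptic vesicles, was 6.66-fold higher in knockdown (10.46, 10.54, 10.73 and 10.71 against 7.82, 7.65, 8.04 and 8). Oma1, a stress-activated protease of the inner mitochondrial membrane, was 5.06-fold higher, with SDs of 0.10 and 0.09 in the groups. Slc30a1, the zinc exporter of the plasma membrane, was 4.62-fold higher. Among the lower genes, Slc16a6, a monocarboxylate transporter, was 5.04-fold lower and Slc5a3, the inositol transporter, 4.85-fold lower with both probes lower. Tmeff2, a transmembrane protein with follistatin domains, was 4.23-fold lower and Grem1, a secreted BMP antagonist, 4.10-fold lower.

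Genes of the synapse were taken by receptor, scaffold and vesicle. Of 25 measured glutamate receptor genes 11 were higher and 1 lower (median 0.33), 7 of the 12 on the nontargeting side. The AMPA receptor subunit Gria2 was higher by 1.25 (12.73, 13.00, 12.53 and 12.94 against 11.63, 11.71, 11.41 and 11.45), and both its probes were higher. Gria3 (1.16), the NMDA receptor subunit Grin2a (1.10) and the metabotropic receptor Grm5 (1.31) were also higher with both probes. Without the knockdown array of replicates 1 and 2 the count of higher receptor genes was 7. Of 35 genes of the postsynaptic density 11 were higher and 1 lower (median 0.23), led by the scaffold Shank3 (1.29, share 84%), and 7 were higher without the knockdown array of replicates 3 and 4. Of 50 genes of synaptic vesicles 8 were higher and 1 lower (median 0.05), which at 18% called lies below the 21.5% of all genes.

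Of 49 potassium channel genes 15 were higher and 1 lower (median 0.33), 5 of the 16 on the nontargeting side, 4 on the knockdown side and 7 on both. The leak channel Kcnk1 was 3.30-fold higher, and Kcnn1 (1.56), Kcna1 (1.34) and Kcnb2 (1.12) were higher too. Of 34 sodium, calcium and HCN channel genes 3 were higher and 5 lower (23.5% called, against 21.5% of all genes tested). Of 19 GABA-A and glycine receptor genes 5 were higher and 1 lower (31.6% called), with Gabra4 lower (-0.74). Whether these lists differ from each other was not tested.

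**Figure D5:**
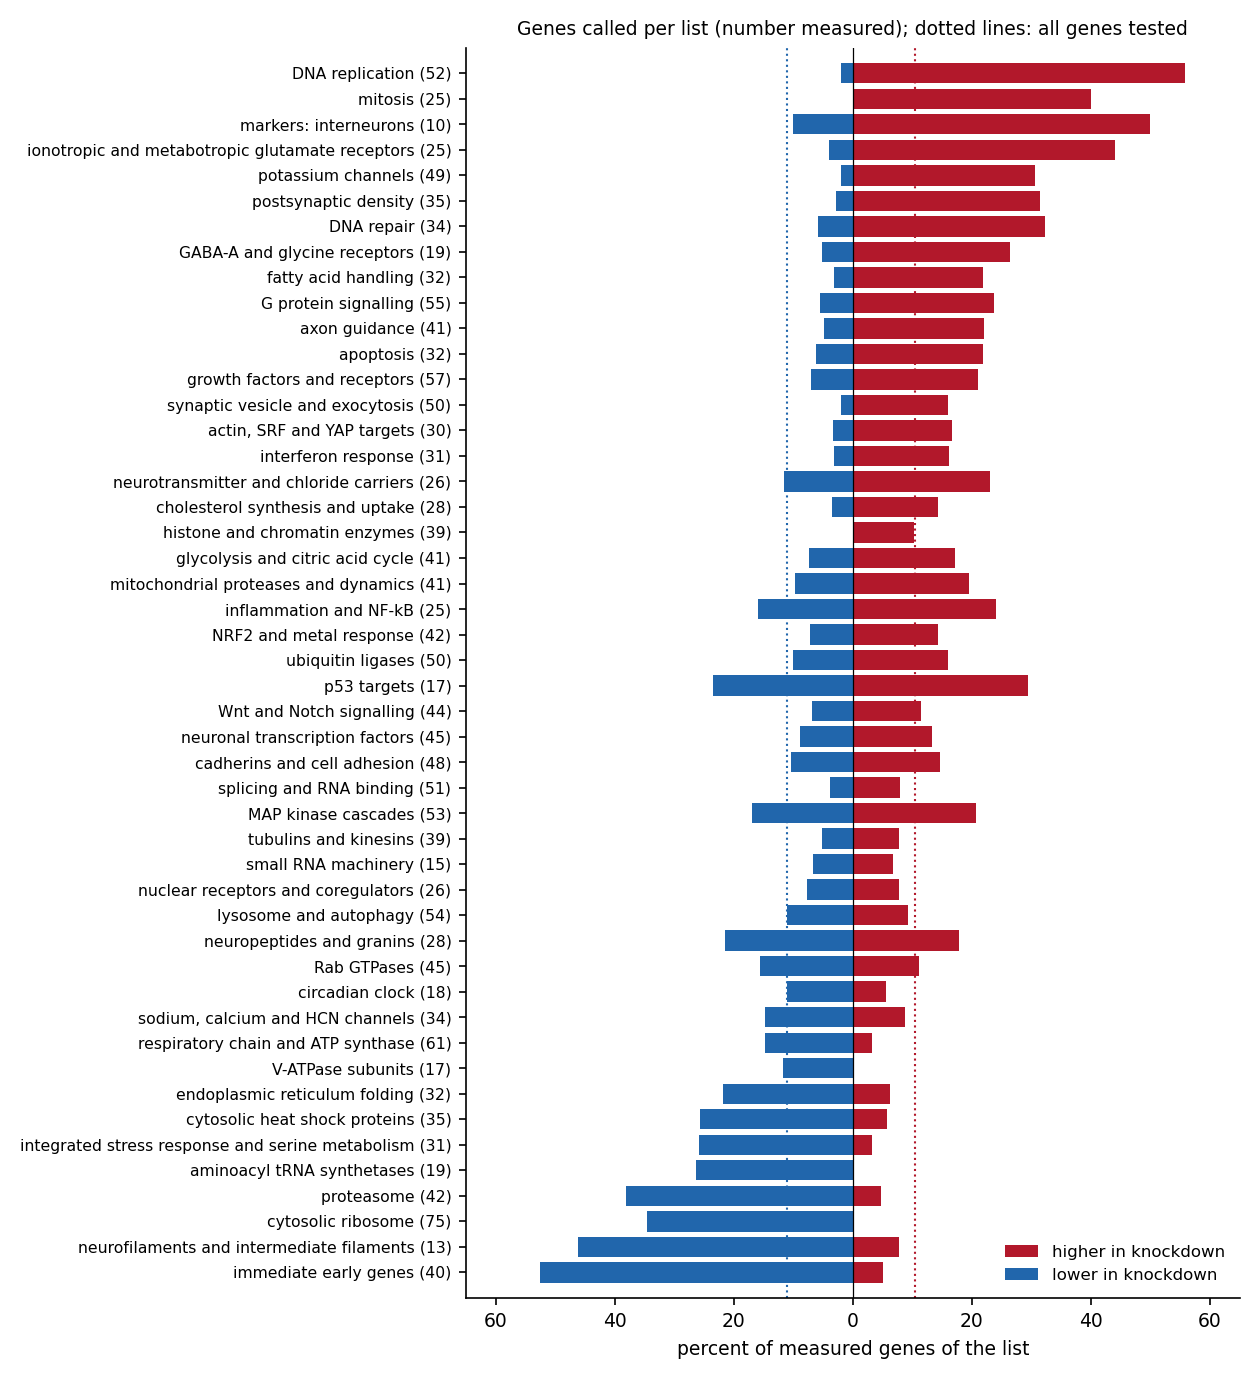
Bars give, for each list with at least 10 measured genes, the percent called higher (right) and lower (left) in knockdown, with the number measured in brackets; dotted lines mark the 10.5% and 11% of all genes tested. DNA replication stands highest on the right and the immediate early genes on the left.

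Genes of protein synthesis and breakdown were taken next. Of 75 genes of the cytosolic ribosome 26 were lower and 0 higher (median -0.40, 34.7% called against 21.5% of all genes tested). Of the 26, 18 lay on both sides. The differences were small, the median against not transduced cultures being -0.19 in knockdown and 0.19 in nontargeting cultures, and 2 of the 75 passed in knockdown there. Rps28 was the ribosomal gene with the smallest p (-0.76, adjusted p = 0.00409; 15.25, 15.17, 15.48 and 15.59 against 16.25, 16.13, 16.20 and 15.97). The count of lower ribosomal genes ran from 5 to 29 over the alternatives and was 7 with the authors' deposited values, 16 without knockdown replicate 3, and 5 and 8 without either knockdown array.

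Of 42 proteasome genes 16 were lower and 2 higher (median -0.33), with the ATPase Psmc6 lower (-1.07, both probes) and the lid subunit Psmd7 higher (1.01, all 3 probes). With the deposited values 6 were lower and 5 higher, and in Cy3 samples alone 2 and 2, so the lean to lower calls was not seen there. Without the knockdown array of replicates 1 and 2 the count of lower ones was 8. Of 19 aminoacyl tRNA synthetases, which charge tRNAs with amino acids, 5 were lower and 0 higher. This was 26.3% called, against 21.5% of all genes tested. Aars1 (-1.08) and Iars1 (-0.86) had the smallest p, and the list's median against not transduced cultures was -0.42 in knockdown and -0.18 in nontargeting cultures.

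Of 31 genes of the integrated stress response and serine metabolism 8 were lower and 1 higher, 6 of the 9 on the knockdown side. This was 29% called, against 21.5% of all genes tested. Ppp1r15a, which restores translation after stress, was lower by 1.46 (log2 difference -1.46), and the pseudokinase Trib3 differed by -0.71. Both shRNA groups lay below not transduced cultures in the median of the list (-0.41 for knockdown, -0.28 for nontargeting). The count of 8 ranged from 2 to 8 over the alternatives and was 5 without nontargeting replicate 2 or 4 or knockdown replicate 2, 3 or 4, and 4 and 3 without the first and second knockdown array.

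Of 35 heat shock genes 9 were lower and 2 higher (median -0.37), 6 of the 11 on the nontargeting side and 0 on the knockdown side. Hspb1, a small heat shock protein, was 5.02-fold lower in knockdown (10.27, 10.15, 10.45 and 10.36 against 12.91, 12.40, 12.75 and 12.50). Its knockdown mean equalled that of not transduced cultures (10.31 in each). With the deposited values 2 heat shock genes were lower and 2 higher, and the count of lower ones was 4 without the knockdown array of replicates 3 and 4. Cryab, another small heat shock protein, went the other way (1.65). Of 32 genes of folding in the endoplasmic reticulum 7 were lower and 2 higher, with Hsp90b1 lower (-0.70). The share called was 28.1%, against 21.5% of all genes tested.

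Of 28 genes of cholesterol synthesis and uptake 4 were higher and 1 lower, all 5 on both sides. This was 17.9% called, below the 21.5% of all genes tested. The exporter Abcg1 was lower (-1.47), and the sterol carrier Stard4 (1.54) and squalene synthase, Fdft1 (0.93), were higher. Of 13 neurofilament and intermediate filament genes 6 were lower and 1 higher (median -0.41). The neuronal filament Ina was lower (-1.55, values in 7 of 8 samples) on the knockdown side and lamin A, Lmna (-1.01), on the nontargeting side, and the count of 6 was 3 and 2 without the first and second knockdown array. Of 61 genes of the respiratory chain 9 were lower and 2 higher (18% called). Of 39 tubulin and kinesin genes 2 were lower and 3 higher (12.8% called). Of circadian clock genes 3 of 18 were called (16.7%), of histone and chromatin enzymes 4 of 39 (10.3%) and of splicing and RNA binding factors 6 of 51 (11.8%), beside 21.5% of all genes, and no difference from that share was tested.

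Signalling genes were called in both directions. Of 53 genes of MAP kinase cascades, which carry the signal to Jun and Fos, 11 were higher and 9 lower. This was 37.7% called, against 21.5% of all genes tested. Of 55 genes of G protein signalling 13 were higher and 3 lower (29.1% called), 8 of the 16 on the nontargeting side. Rgs2, a GTPase activator induced by activity, was lower (-1.80), and the inhibitory subunit Gnai1 was higher (1.57). Of 57 growth factor and receptor genes 12 were higher and 4 lower (28.1% called), with neuregulin, Nrg1, higher by 1.35. Of the other 2 probes of Nrg1, 1 was higher (0.27) and 1 did not pass (0.06).

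Cell type markers were read beside these results, since fewer cells of a type and less RNA per cell cannot be told apart in bulk cultures. All 8 measured neuron markers were well above background in all 8 samples, and the neurofilament gene Nefl (-0.68) and doublecortin, Dcx (0.73), passed in opposite directions. The 6 excitatory neuron markers, 5 microglia markers, 3 endothelial and mural markers and 5 fibroblast markers had 0 genes called. With 21.5% of all genes tested called, 0 calls in lists this short show little. Of 10 interneuron markers 5 were higher and 1 lower in knockdown (60% called, against 21.5% of all genes tested). Their median against not transduced cultures was -1.19 in nontargeting cultures and -0.42 in knockdown. The GABA transporter of vesicles, Slc32a1 (1.10), and Dlx5 (1.03) were higher on the nontargeting side, and Calb2 was lower on the knockdown side. The summed level of the interneuron list spanned 14.36 to 14.70 (log2) in knockdown and 14.34 to 14.85 in nontargeting cultures, so the groups overlapped.

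Of 9 astrocyte markers 3 were higher (Slc1a3 1.14, S100b 1.13 and Slc1a2 0.59, whose second probe did not pass at 0.03) and 1 lower, Gfap (-1.57, both probes). That made 44.4% called, beside 21.5% of all genes tested. Gfap did not pass without nontargeting replicate 2 (-1.49, adjusted p = 0.0697), and Gfap and Slc1a2 did not pass without either knockdown array. Their summed level spanned 16.52 to 16.72 in knockdown and 16.23 to 16.59 in nontargeting cultures. Of 9 oligodendrocyte markers 3 were higher (33.3% called), among them Olig1 (1.25) and Cspg4 (0.60). The summed level of the 8 with full values spanned 11.59 to 11.81 in knockdown and 10.97 to 11.07 in nontargeting cultures. This sum leaves out Olig1, which alone was brighter, with means of 15.03 in knockdown and 13.78 in nontargeting cultures. No measured marker was below this limit in all 8 samples, and 0 of the 3 endothelial and mural markers were above it in all 8. The part of glial cells in the replication and mitosis results was not tested.

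Some called genes were well above background in all 4 samples of one group and in 0 of the other. Their folds were taken against the higher of the dimmest detected signal and the probe's own reading in each sample of the dim group, and are given as at-least values because the dim readings were not well above background. For the 5 genes named below from nontargeting cultures the probe's own reading was the higher, so the value is the measured difference. Among called genes there were 12 in nontargeting cultures alone and 17 in knockdown alone. A probe needed only 4 of the 16 samples well above background to be tested, so these genes could enter through their bright group alone. Their calls and counts are therefore not independent of that filter. How many tested genes had this pattern without a call was not counted. Cxcr5, a chemokine receptor, was at least 2.87-fold lower in knockdown, although its nontargeting samples ranged from 7.47 to 9.93. Nup62cl was at least 2.14-fold lower, Olr943 1.90-fold, Zfp518b 1.88-fold and Npas4, a transcription factor specific to neuronal activity, 1.80-fold. In the other direction Dhrs7c was at least 2.69-fold higher, Colq 1.68-fold, Krt32 1.59-fold, Cenpu of the centromere 1.56-fold and Fam111a 1.52-fold.

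Signal differed between dyes and groups. Probes well above background were 49.2% to 56.3% in Cy3 and 65.9% to 69.6% in Cy5, and the median signal over background was 68.9 to 75.6 in Cy3 nontargeting samples and 90.2 to 91.4 in Cy3 knockdown samples. In Cy5 it was 99 and 123 in nontargeting and 129 and 132 in knockdown samples. Spots marked as outliers numbered 255 to 965 a sample, the most in nontargeting replicates 3 and 4. The part of this difference in signal in the results was not tested. Of 962 called genes with further measured probes, 351 had every other probe called in the same direction, 414 at least 1, 12 had one called in the opposite direction, and 537 had no other probe called. Called probes held a median of 41.7% to 43.3% GC by side and direction, against 45% for genes not called. The share called per chromosome ran from 17.9% to 25.8%. The number of arrays, 2 a group, limits the precision of every value.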

How the data were processed

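RNA from 16 cultures was measured on 8 arrays, and a sample's group came from its source label. A description field that names adult tissue contradicts the culture labels and was not used. The intensity values are mean spot and median background signals made with Agilent Feature Extraction 10.7.3.1, per the file headers and the submitters' processing notes, with no normalization. The deposited log2 values equal median signal minus background, centred on each column's median (0), as comparison with the scanner values showed.

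Each sample's own channel was corrected with normexp (offset 50), normalized by loess and Aquantile, and averaged per probe, without spots the scanner software marked as outliers. A probe was kept if 4 or more of the 16 samples were well above background, with 12 values in all and 2 in each group, and the brightest probe stood for its gene. Group and dye were fitted over 16 samples in R 4.3.3 by limma 3.58.1 (statmod 1.5.0), with the array as a random block (correlation 0.569). Benjamini-Hochberg adjustment covered 22925 genes, and a gene was called at an adjusted p under 0.05. Of 41012 probes 21160 matched a symbol of the reference table. Coordinates are those of rn4, and exon, intron and UTR annotation was not used here.

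Named genes were, for each side and direction, the 5 largest differences among genes well above background in all 8 samples, with no overlap and with every other probe called the same way, up to 5 members of each list by p, and the 5 largest bounds among genes detected in 1 group. Genes added later are said to be so. Some genes that this rule selects are not reported here. The lists and members were chosen with earlier results of these data known. Same-numbered samples of both groups deviated together weakly (correlations 0.134, 0.151, 0.257 and 0.192), and they also share a dye. With 2 arrays a group, whether the numbers pair cultures could not be told, and the main fit did not use them. On simulated data for this comparison (22925 genes) limma called 13.4% of differences of 0.5 log2 units, 82.1% of 1 and 97% of 2, with 5 false among 133 calls. The simulation held 67, 67 and 66 changed genes of these sizes, each changed in 1 group only, whereas 4919 genes were called here. The Benjamini-Hochberg cutoff depends on the share of changed genes, so these rates do not carry over to the data. Alternatives covered the values used, normalization, offset, filter, outlier marks, probe choice, samples, dye, block and the limits of the share.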

Additional observations from a re-analysis of the deposited data

Results flagged for a closer look

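Among 218 groups of 4 samples of the named genes, 7 held a sample far from the other 3 by Dixon's test, and chance alone gives about 1 in 20 groups. Dynlrb1 read 11.76 in knockdown replicate 4 against 12.84 to 13.06 in the other knockdown samples. Knockdown replicate 3 was high for Mcm3 (11.45) and Tcf19 (12.94) and low for Nrg1 (10.55). Slc1a3 read 15.68 in knockdown replicate 4. In nontargeting cultures Junb read 10.92 in replicate 4 and Rab4b 9.53 in replicate 2, where the other 3 samples all read 9.49. Each of these samples stayed on its own group's side of the difference. For Dynlrb1, Mcm3, Tcf19, Junb and Rab4b this was fixed in advance, because the rule that named them required no overlap.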

How the results depend on the processing

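All 29 genes named by side kept their direction and call under each of 26 alternatives. They had been chosen for large called differences with no overlap between the groups, so much of this stability was built into the choice. Of 86 other named genes 57 stayed called or not called as before, 29 lost the call under at least 1, and 0 were reversed while called. Jun, among the 57, was called under none, and its difference ran from -0.44 to 0.1. With the deposited log2 values 3608 genes were higher and 980 lower, with 3163 of the 4919 calls shared. With each array as 1 value there were 3368 calls (1696 higher, 1672 lower), 3228 of them shared. Cy3 samples alone gave 2250 calls (1150 higher, 1100 lower), and Cy5 samples alone 3059 (1529 and 1530). Without the knockdown array of replicates 1 and 2 there were 2879 calls (1462 and 1417), and without that of replicates 3 and 4 there were 3103 (1512 and 1591). The cause of these changes beyond fewer samples was not tested. A limit of 2-fold left 951 genes (575 and 376). Leaving out single samples gave 4289 to 5036 calls (2085 to 2473 higher, 2204 to 2616 lower). Of these 45.1% to 48.3% lay on the nontargeting side, 15.3% to 17.2% on the knockdown side and 35.9% to 37.9% on both. The division moved further in other settings. With the deposited values 35.1% lay on the nontargeting side, 23.9% on the knockdown side and 41% on both. Without the knockdown array of replicates 3 and 4 these shares were 40.1%, 19.1% and 40.8%. Without the nontargeting array of replicates 1 and 2 there were 5681 calls, 52.6% of them on the nontargeting side. Without that of replicates 3 and 4 there were 4432 (47.3%). With limits of 60% and 40% both sides held 15.5%, and with 90% and 10% they held 55% and the knockdown side 11.2%. The replicate block gave 5703 calls (2739 higher, 2964 lower), 4904 of them shared. Of the gene lists 12 were recomputed under the alternatives, and signals near background limit what could be detected.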

Other observations

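Cadherin and cell adhesion genes were called in both directions, 7 higher and 5 lower of 48 measured, 12 in all (25%) beside 21.5% of all genes tested, and 7 of the 12 lay on the knockdown side. Pcdh19, a protocadherin of synapses, was lower (-1.02, adjusted p = 0.000303 in limma), with group means of 12.84 in knockdown, 13.87 in nontargeting and 13.98 in both other groups. Pcdh8, a protocadherin induced by activity, was lower on the nontargeting side (-1.45). Cdh8 was higher on the knockdown side (0.70), and the adhesion molecule Nrcam on both sides (1.40), although 1 of its other probes did not pass (0.07). Of 41 axon guidance genes 9 were higher and 2 lower (26.8% called), among them the receptor Robo2 (1.27) and its ligand family member Slit3 (1.57), both on both sides, although the second probe of Robo2 did not pass (0.58, adjusted p = 0.0642).

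Neuropeptide and granin genes were divided, with 5 higher and 6 lower of 28 (39.3% called, against 21.5% of all genes tested). The granins Scg2 (-1.11) and Chgb (-0.57) were lower on the nontargeting side, and Nxph1, a neurexin ligand, was higher there (1.65). The nontargeting mean of Nxph1 was 9.51, against 11.16 in knockdown and 12.16 in not transduced cultures. Pcsk2, which cleaves prohormones, was higher on the knockdown side (1.06), but its second probe did not pass (0.43). Of 17 p53 target genes 5 were higher and 4 lower (52.9% called), with Tp53inp1 higher on the knockdown side (1.06) and the kinase Plk3 lower on the nontargeting side (-1.06).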
